A study of Mus musculus with 16 samples.

Results

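Cytosolic ribosomal protein genes were examined in mouse heart ventricle 1 week after trans-aortic banding (TAB), a surgery that raises the pressure load on the left ventricle, or after a sham operation. They were taken by gene name: every non-control probe whose gene name begins with Rpl or Rps and a number, or is Rplp0, Rplp1, Rplp2 or Rpsa, without Rpl3, Rpl3l and the S6 kinase genes, and whose heart signal was well above background on 4 or more of 16 arrays. By that rule 118 probes of 80 genes were members, among 41174 non-control probes on the array. A further 17 probes carried such a name but missed the background rule, with 16 of them above background on no array and 1, for Rpsa, on 1 array. Of the members, 109 probes of 72 genes had a value on at least 15 arrays and were tested, within 14695 tested probes in all. The remaining 9 members, probes of Rps4x, Rps12, Rps14, Rps19, Rps20, Rps23, Rps27, Rpl37a and Rplp2, had spots marked as outliers by the image software, and their values are given apart.

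The name rule was checked against the proteins of the ribosome. Of 80 canonical proteins, 75 had a member probe and 67 a tested one. By class, 40 tested genes encode large subunit proteins, 25 small subunit proteins, 2 stalk proteins and 4 paralogues (Rpl22l1, Rpl36al, Rps27l and Rpl7l1), and 1 is Rps19bp1, a binding partner of Rps19 that is not itself a ribosomal protein. The genome holds many processed pseudogenes of these genes (298 in the RefSeq table), and a probe may bind their transcripts or those of a near-identical paralogue, so a value for a single gene is uncertain to that extent.

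The study compared 4 groups of 4 heart samples from mice of strain 129Sv: wild type after sham (WT sham), wild type after banding (WT TAB), CHIP-/- after sham (CHIP-/- sham) and CHIP-/- after banding (CHIP-/- TAB). CHIP, encoded by Stub1, is a co-chaperone and ubiquitin ligase, and the labels do not say how the allele was made. On each 2-colour array 500 ng of heart RNA, labelled with Cy5, was set against the same amount of a common reference RNA from whole neonatal mice of mixed 129Sv and C57BL/6 background, labelled with Cy3. Values are log2 ratios of heart over reference, normalized by loess so that 0 is about the level of probes of like brightness on the same array, not equal amounts of a message in heart and reference. Each of the 4 slides held 1 group and was scanned as a whole, so that a slide effect and a group effect cannot be told apart in any comparison below.

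Ribosomal proteins assemble with ribosomal RNA into the small and large subunits, which together translate every cytosolic message. Their messages share a run of pyrimidines at the capped end, the 5' TOP motif, through which mTOR signalling controls their translation as a group. Growing tissues and hypertrophying hearts make more ribosomes, which makes these genes a common readout of growth. Rps6 is the classical substrate of the S6 kinases, Rpl5 and Rpl11 bind the p53 regulator Mdm2 when ribosome assembly is disturbed, and Rplp0, Rplp1 and Rplp2 form the stalk that recruits translation factors.

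The sequences around the annotated transcription start are given for 4 genes with large differences after banding (Rpl39, Rpl38, Rpl36a and Rpl12), for 3 with small or probe-dependent ones (Rplp0, Rpl36al and Rps3) and for Rps6, whose difference depended on genotype. Each runs 5' to 3' on the gene's strand, with 40 bases before the start and 20 from it on, from RefSeq on GRCm38.p6. Capitals mark TCTTT, searched on the gene's strand as a short stretch of the kind seen in TOP messages, and CGGAAG, the core bound by ETS-type factors, searched on both strands (as CTTCCG on the other).
Rpl39, chrX:37085203-37085262, minus strand: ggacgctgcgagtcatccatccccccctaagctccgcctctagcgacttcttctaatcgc
Rpl38, chr11:114668540-114668599, plus strand: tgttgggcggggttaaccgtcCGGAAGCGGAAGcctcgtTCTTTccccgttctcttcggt
Rpl36a, chrX:134585614-134585673, plus strand: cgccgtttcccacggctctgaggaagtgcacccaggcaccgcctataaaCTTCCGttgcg
Rpl12, chr2:32961672-32961731, plus strand: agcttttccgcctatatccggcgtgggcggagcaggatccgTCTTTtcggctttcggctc
Rplp0, chr5:115559427-115559486, plus strand: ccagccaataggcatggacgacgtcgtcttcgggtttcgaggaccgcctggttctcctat
Rpl36al, chr12:69184048-69184107, minus strand: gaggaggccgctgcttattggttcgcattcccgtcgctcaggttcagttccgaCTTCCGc
Rps3, chr7:99483690-99483749, minus strand: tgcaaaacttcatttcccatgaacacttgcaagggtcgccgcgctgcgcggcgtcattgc
Rps6, chr4:86857348-86857407, minus strand: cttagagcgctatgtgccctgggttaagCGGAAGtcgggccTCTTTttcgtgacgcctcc
The RefSeq table matched 61 of the 80 member genes, with 71 promoters. In these 60-base windows TCTTT occurred in 16 of the 71 member promoters (22.5%), against 7.71% of 32851 promoters of all genes, and CGGAAG or its complement in 19 (26.8%), against 6.62%. Both motifs stand in Rpl38 and in Rps6, and neither in Rpl39, Rplp0 or Rps3. A match is a description of the letters only.

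The targeted gene followed the labels, though where its probe lies relative to the deleted part was not determined here. The Stub1 probe gave 0.30, 0.37, 0.39 and 0.43 on the WT sham arrays and -1.37, -1.31, -1.39 and -1.24 on the CHIP-/- sham arrays. After banding the WT arrays gave 0.25, 0.06, -0.41 and 0.14 and the CHIP-/- arrays -1.47, -1.17, -1.36 and -1.29. Between 27.0% and 37.7% of non-control probes lay well above background in the heart channel, arrays of a group correlated at 0.95 to 0.98, and precision is limited by how many arrays there are. The samples of a group are numbered as biological replicates, with no more said of how they were obtained. Myl7, an atrial light chain, stood at 3.82 and 1.89 on WT sham arrays 1 and 3 and at 2.20 on CHIP-/- sham array 1, against -1.99 to 0.17 on the other 13, so that 3 sham hearts carried more atrial message than the label ventricle implies. Transcripts of the Y-linked gene Ddx3y were above background on 3 arrays (WT sham 4, CHIP-/- sham 2 and 4).

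Ribosomal protein messages were higher after banding in wild-type hearts, relative to other probes of like brightness. In 95 of the 109 member probes the level was higher in WT TAB than in WT sham at an adjusted p below 0.05 (limma on all tested probes, Benjamini-Hochberg), and in none was it lower; over all tested probes 16.3% were called higher, 17.1% lower and 33.4% in either direction. The median difference of the members was 0.43 (log2), against -0.01 over all tested probes. By array, the median over the member probes was -0.97, -0.89, -0.93 and -0.96 after sham and -0.51, -0.53, -0.51 and -0.46 after banding, so the groups were far apart compared with the SD within them (0.036 and 0.029, n = 4 each). The 4 arrays of each group did not overlap for 95 members, against 30.0% of all probes. With 1 probe a gene, 67 of 72 member genes rose, against 2067 of 11066 probes when the whole array was reduced in that way.

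CHIP-/- hearts also showed higher levels after banding. In them 90 of 109 member probes were higher after banding and none lower, with 21.3% of all tested probes called higher, 22.7% lower and 44.0% in either direction, and the median difference was 0.36, against -0.02 over all probes. By array, the member median was -0.83, -0.88, -0.90 and -0.92 after sham and -0.49, -0.40, -0.48 and -0.49 after banding, again without overlap. For 88 members the arrays of the groups did not overlap, against 39.7% of all probes. Of the 72 genes, 65 rose in CHIP-/- hearts, against 2659 of 11066 probes over the whole array with 1 probe a gene. In both genotypes 63 member genes rose, 6 rose in 1 genotype and 3 in neither. How many of all genes rose in both was not counted.

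**Figure D1:**
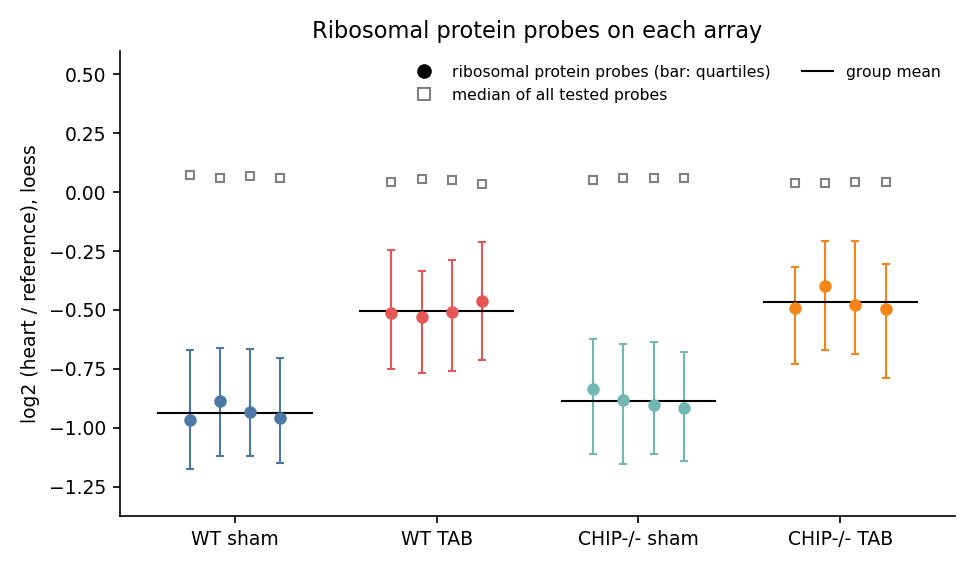
Median log2 ratio of heart over reference after loess for the 109 tested ribosomal protein probes on each of the 16 arrays (filled points, bars for the quartiles over probes), with the group mean of the 4 medians (line) and the median of all tested probes (open squares). The 8 TAB arrays lie between -0.53 and -0.40 and the 8 sham arrays between -0.97 and -0.83.

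The rise was relative to other probes, and its size depended on how the arrays were scaled. Before any normalization the ratio of the members was no higher after banding: the group mean of the array medians was -1.40 ± 0.28 in WT sham and -1.46 ± 0.17 in WT TAB, and -1.28 ± 0.16 and -1.47 ± 0.17 in CHIP-/- (SD, n = 4). The median ratio of all tested probes was also lower after banding, at -0.68 ± 0.09 in WT TAB against -0.44 ± 0.15 in WT sham, and at -0.68 ± 0.12 against -0.37 ± 0.09 in CHIP-/-. The members lay below the tested median by a mean of -0.96 ± 0.13 in WT sham and -0.78 ± 0.08 in WT TAB, and by -0.91 ± 0.07 and -0.79 ± 0.06 in CHIP-/-, and the arrays of sham and TAB overlapped in that distance in both genotypes. Loess sets the probes of each brightness to a common level, and Feature Extraction's own ratios, also normalized by dye, gave much the same result (90 higher and 0 lower in wild type, median 0.40, and 89 higher and 1 lower in CHIP-/-, median 0.36).

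Scalings by a single constant per array gave smaller differences or none. Centring on the median of the tested probes, added after the data were seen, left 42 members higher and 1 lower in wild type (median 0.18) and 26 higher and 3 lower in CHIP-/- (median 0.10). Of all 14695 tested probes 2156 were called higher and 2605 lower in wild type, and 3063 and 3385 in CHIP-/-. Centring on the median of all non-control probes, most of them near background, left 0 higher and 2 lower in wild type (median -0.0089) and 3 higher and 14 lower in CHIP-/- (median -0.13), while the median of all tested probes moved to -0.18 and -0.21. Over all tested probes 446 were then called higher and 5240 lower in wild type, and 835 and 6456 in CHIP-/-. Centring on the 10 spike-in control probes, also added afterwards, gave 1 higher and 2 lower in wild type (median 0.0059) and 28 higher and 0 lower in CHIP-/- (median 0.18), with medians over all tested probes of -0.17 and 0.09. With the spike-ins 490 of all tested probes were called higher and 5039 lower in wild type, and 3687 and 2040 in CHIP-/-. In CHIP-/- the share of members called higher was thus near that of all tested probes, with the spike-ins and with the median of the tested probes. The share of higher calls among all calls moved with the scaling. In wild type it went from 48.8% under loess to 7.84% with the median of all probes and 8.86% with the spike-ins. In CHIP-/- it went from 48.4% to 11.5% and 64.4%. The heart channel alone, quantile normalized, gave 73 higher and 1 lower in wild type (median 0.27) and 62 higher and 0 lower in CHIP-/- (median 0.19). There 1881 of all tested probes were called higher and 2474 lower in wild type, and 2556 and 3569 in CHIP-/-. In each of these settings the member median lay above the median of all tested probes, by 0.18 to 0.47 in wild type and by 0.08 to 0.43 in CHIP-/-. From here on, rose and fell refer to the loess ratio.

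**Figure D2:**
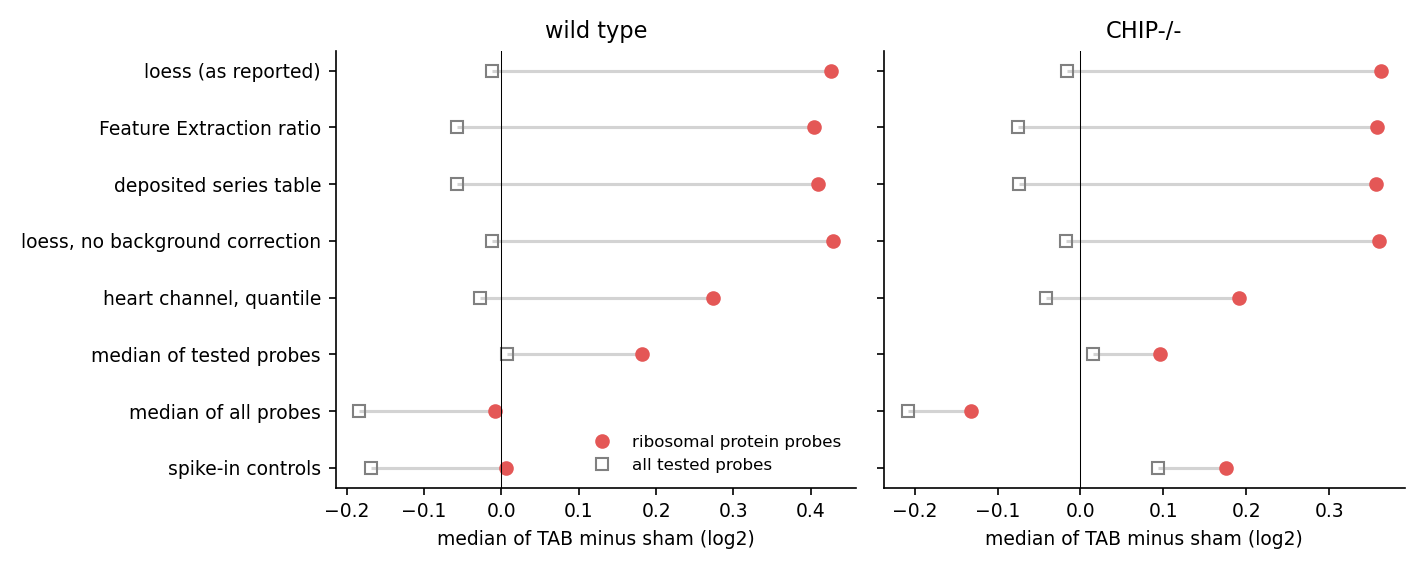
Median of the TAB minus sham difference (log2) over the ribosomal protein probes (filled) and over all tested probes (open) under 8 scalings, for wild type (left) and CHIP-/- (right). The filled point lies to the right of the open one in every row, but it is below 0 with the median of all probes in both panels.

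The difference varied with the brightness of the probe. Among the 45 members with a mean log2 signal of both channels of 12 or more, all 45 rose in wild type (median 0.54) and 44 in CHIP-/- (median 0.53), while of 175 other probes in that band 46.9% rose in wild type (median 0.16) and 44.6% in CHIP-/- (median 0.10). Among 34 members between 10 and 12 the medians were 0.41 and 0.36, and all 34 and 32 rose, against 37.4% and 39.7% of 936 other probes. Among 20 members between 8 and 10 the medians were 0.20 and 0.22, with 15 and 12 rising, against 23.1% and 29.9% of 3872 other probes. Among 10 members below 8 they were 0.02 and 0.09, with 1 and 2 rising, which is near the 10.1% and 14.9% of 9603 other probes. Across the 109 probes the difference correlated with brightness at r = 0.78 in wild type and 0.65 in CHIP-/-; the probes share arrays and the loess curve, and several target 1 gene. Members made up 20.5% of the tested probes in the brightest band, and so took part in setting the loess curve there.

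**Figure D3:**
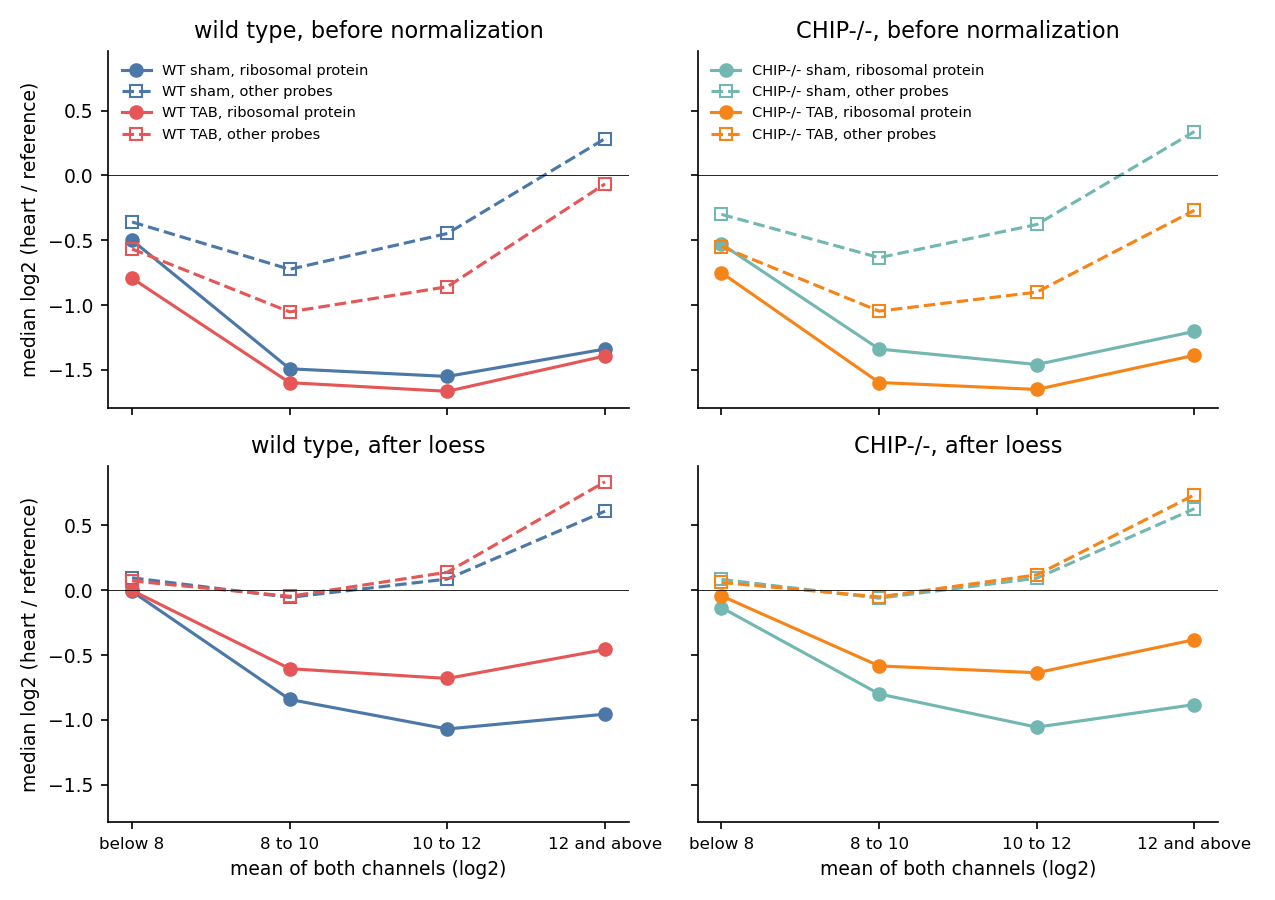
Median log2 ratio by brightness band, as the mean log2 signal of both channels, before normalization (top) and after loess (bottom), for ribosomal protein probes (filled, solid) and all other tested probes (open, dashed) in wild type (left) and CHIP-/- (right). Before normalization both kinds lie lower after TAB, in the bands from 8 upward the other probes by more; after loess the other probes nearly coincide except at 12 and above, and the members lie higher after TAB in the bands from 8 upward.

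The reference channel gives a limited check on the common RNA. Before normalization its member median ran from 12.14 (CHIP-/- sham array 4) to 12.56 (WT TAB array 2). Quantile normalization gives every array the same distribution, which leaves a member median little room to move. After it, the reference member median was 12.38 ± 0.04 after sham and 12.38 ± 0.01 after banding on the wild-type arrays. On the CHIP-/- arrays it was 12.38 ± 0.02 and 12.36 ± 0.02 (SD, n = 4). No member was called in that channel between WT TAB and WT sham, where 16 probes were called in all. Between CHIP-/- TAB and CHIP-/- sham 2 members were called higher and 8 lower there, among 1142 probes. Rpl11 at -0.21 and Rpl41 at -0.19 were among them, and their ratios in CHIP-/- hearts include that shift. Between CHIP-/- sham and WT sham 414 probes were called in the reference channel, with 1 member higher. For the difference in response 138 were called and no member. Between the banded groups 0 were called. The ratios compared between TAB and sham in CHIP-/- and between genotypes after sham, and the differences in response, include such shifts. Between CHIP-/- TAB and CHIP-/- sham the median reference difference of the members was -0.037, and a lower reference raises the ratio.

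Among large subunit proteins 37 of 40 genes rose in wild type and 38 in CHIP-/-, with medians of 0.46 and 0.45. Over all tested probes 16.3% and 21.3% were called higher. Rpl39, a small protein at the exit tunnel for the nascent chain, had the largest difference in both genotypes. It stood at -0.61, -0.66, -0.65 and -0.70 in WT sham and at 0.02, 0.11, 0.09 and 0.28 in WT TAB. In CHIP-/- it stood at -0.55, -0.65, -0.69 and -0.74 after sham and at 0.33, 0.33, 0.51 and 0.22 after banding. Every TAB array lay above every sham array. The difference was 0.78 ± 0.07 in wild type (SE, 1.72-fold, limma adjusted p = 1.0e-08) and 1.01 ± 0.07 in CHIP-/- (2.01-fold, adjusted p = 6.5e-11). Rpl39 ranked first among the 109 members under every scaling ranked except the heart channel in wild type, where it was the third, and with the median of all probes its wild-type difference of 0.32 was not called (limma adjusted p = 0.064).

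Rpl38, whose dosage affects the translation of Hox messages in embryos, was next in wild type. It stood at -0.45, -0.27, -0.29 and -0.41 in WT sham against 0.41, 0.36, 0.32 and 0.45 in WT TAB. In CHIP-/- it stood at -0.23, -0.24, -0.26 and -0.37 after sham and at 0.46, 0.58, 0.52 and 0.37 after banding. Sham and TAB arrays did not overlap in either genotype. The differences were 0.74 ± 0.06 and 0.76 ± 0.06 (SE, limma adjusted p = 1.0e-08 and 1.2e-09).

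Rpl36a had 3 probes, and its rise depended on the probe. The brightest rose by 0.70 in wild type and 0.83 in CHIP-/-, a second by 0.71 and 0.90 and the third by 0.48 and 0.54, each with an SE between 0.05 and 0.07. On the brightest, WT sham stood at -1.46, -1.21, -1.22 and -1.21 and WT TAB at -0.62, -0.56, -0.59 and -0.51. The CHIP-/- arrays stood at -1.16, -1.21, -1.15 and -1.33 after sham and at -0.47, -0.33, -0.25 and -0.47 after banding. Its paralogue Rpl36al, on chromosome 12, stood at -0.91, -0.83, -0.92 and -0.91 in WT sham and -0.66, -0.76, -0.82 and -0.70 in WT TAB, a difference of 0.16 ± 0.06 (SE, limma adjusted p = 0.034). That call held in 18 fits, this one included, with 34 alternatives run, and was lost without WT sham array 1, 3 or 4 or WT TAB array 1 or 4 (difference 0.14 to 0.15). In CHIP-/- Rpl36al stood at -0.77, -0.88, -0.72 and -0.86 after sham and -0.77, -0.79, -0.68 and -0.79 after banding, with overlapping arrays and a difference of 0.05 (95% interval -0.07 to 0.16). The Rpl36al probe was dimmer than the brightest Rpl36a probe, with a mean log2 signal of 9.49 against 12.4. The difference between the paralogues was not tested.

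Rpl12, part of the stalk base, rose by 0.62 ± 0.06 in wild type and 0.70 ± 0.06 in CHIP-/- (SE). Its arrays read -1.06, -0.96, -0.98 and -1.00 in WT sham and -0.38, -0.44, -0.42 and -0.27 in WT TAB. In CHIP-/- they read -0.93, -0.97 and -0.93 after sham, where 1 spot was dropped, and -0.34, -0.16, -0.16 and -0.31 after banding. Rpl41, the smallest ribosomal protein, rose by 0.63 and 0.66, and Rpl35, by the tunnel exit, by 0.61 and 0.57. Rpl10, which joins the large subunit late in its maturation and lies on the X chromosome with Rpl36a and Rpl39, rose by 0.54 and 0.66 on its brighter probe and by 0.48 and 0.55 on the other.

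Rpl5 and Rpl11 rose as well. Rpl5 stood at -1.62, -1.50, -1.47 and -1.55 in WT sham and at -1.02, -1.18, -1.10 and -1.05 in WT TAB, a difference of 0.45 ± 0.06 (SE, limma adjusted p = 1.9e-06), and its difference in CHIP-/- was 0.41 ± 0.06, with 1 sham spot dropped. Rpl11 rose by 0.38 ± 0.06 in wild type, from -1.19, -0.95, -0.98 and -1.02 to -0.66, -0.73, -0.71 and -0.53, and by 0.52 ± 0.07 in CHIP-/-, where 1 sham spot was dropped as well. Rpl13a, which is released from the ribosome to silence inflammatory messages, rose by 0.33 and 0.29, and Rpl10a by 0.38 and 0.27. Each of these 4 genes had a value below 0 in at least 1 genotype with the median of all probes, as the closing section lists.

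A few large subunit genes did not pass the test in 1 or both genotypes. Rpl21, Rpl14 and Rpl18 are named after their values were seen. The brighter Rpl21 probe and the Rpl14 probe lay at 7.57 and 7.62 in mean log2 signal, in the band below 8 where few members rose. Those of Rpl4 and Rpl18 lay at 9.08 and 10.7. The part of brightness in these values was not tested. Rpl21 gave -0.20 on its brighter probe in wild type (limma adjusted p = 0.076) and 0.01 in CHIP-/-, and Rpl14 gave 0.17 in wild type, not called, and 0.43 in CHIP-/-, called. Rpl4 was not called in wild type (0.05 ± 0.06, SE), with arrays at -1.59, -1.54, -1.48 and -1.52 after sham and -1.58, -1.48, -1.45 and -1.44 after banding, which overlap. In CHIP-/- it was called, at 0.27 ± 0.06, from -1.50, -1.66, -1.54 and -1.59 to -1.34, -1.24, -1.30 and -1.32. Rpl18 was called in wild type (0.19) and not in CHIP-/- (0.10).

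Both tested stalk proteins were called higher, Rplp0 only narrowly. Rplp1 stood at -0.19, -0.09, -0.12 and -0.28 in WT sham and at 0.56, 0.52, 0.49 and 0.64 in WT TAB. In CHIP-/- it stood at -0.02, -0.06, -0.14 and -0.18 after sham and at 0.72, 0.80, 0.74 and 0.62 after banding. Its rise was 0.72 ± 0.07 in wild type and 0.82 ± 0.07 in CHIP-/- (SE, limma adjusted p = 2.7e-08 and 9.5e-10); in the heart channel alone its CHIP-/- difference was -0.25 and not called. Rplp0, often used as a reference gene, stood at -1.19, -1.13, -1.10 and -1.13 in WT sham and -0.98, -1.02, -0.97 and -1.00 in WT TAB, a rise of 0.14 ± 0.05 (SE, adjusted p = 0.047), and rose by 0.14 ± 0.05 in CHIP-/- (adjusted p = 0.041), where the arrays overlapped at -1.15, -1.13, -1.15 and -1.04 against -1.02, -0.86, -0.95 and -1.08. The Rplp0 call held in 12 fits in wild type and 19 in CHIP-/-, the one given here included, with 34 alternatives run. In wild type it was lost without any 1 of the 8 wild-type arrays (difference 0.13 to 0.16) and, through the shared spread, without CHIP-/- sham array 1, 2 or 3 or CHIP-/- TAB array 1. The CHIP-/- call was lost without CHIP-/- sham array 1, 2 or 3 or CHIP-/- TAB array 2 or 3 (difference 0.10 to 0.14). The Rplp0 probe was dimmer than that of Rplp1, with a mean log2 signal of 9.80 against 15.1. The difference between the genes was not tested.

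Among small subunit proteins all 25 tested genes rose in wild type (median 0.48) and 23 in CHIP-/- (median 0.39), against 16.3% and 21.3% of all tested probes. Rps18 rose by 0.62 and 0.67, Rps24 by 0.61 and 0.63 and Rps28 by 0.59 and 0.66, in wild type and CHIP-/-. Rps27a, made as a fusion with ubiquitin, stood at -0.98, -0.86, -0.90 and -0.98 in WT sham and -0.35, -0.35, -0.36 and -0.23 in WT TAB. In CHIP-/- it stood at -0.85, -0.91, -0.89 and -0.97 after sham and -0.35, -0.27, -0.17 and -0.33 after banding. Its groups did not overlap in either genotype, and the rise was 0.61 ± 0.06 and 0.62 ± 0.06 (SE). Rps19, mutated in Diamond-Blackfan anaemia, rose by 0.50 ± 0.05 and 0.58 ± 0.05 on its tested probe. Its partner Rps19bp1 was called in neither genotype, at 0.05 and 0.07 on its brighter probe. That probe was dimmer than the tested Rps19 probe, with a mean log2 signal of 8.04 against 11.5.

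Rpsa, also known as a laminin receptor, rose by 0.24 ± 0.07 in wild type (SE, limma adjusted p = 0.013), from -1.34, -1.32, -1.30 and -1.37 to -0.95, -1.22, -1.02 and -1.20. Without WT TAB array 1 it was 0.19 and not called. In CHIP-/- its arrays overlapped, at -1.44, -1.33, -1.41 and -1.19 after sham and -1.14, -1.38, -1.19 and -1.32 after banding, and the difference of 0.09 was not called. The test of the difference between the genotypes did not pass (-0.15, 95% interval -0.36 to 0.06).

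The paralogues split. Rps27l, a p53 target, rose by 0.47 ± 0.07 in wild type and 0.55 ± 0.07 in CHIP-/- (SE), from -0.14, -0.26, -0.24 and -0.30 to 0.32, 0.13, 0.25 and 0.26 and from -0.22, -0.13, -0.35 and -0.31 to 0.18, 0.36, 0.43 and 0.22. Rpl22l1 rose by 0.41 ± 0.07 and 0.29 ± 0.07. Rpl7l1 was called on neither of its probes, at 0.02 and 0.00 in wild type and 0.05 and 0.10 in CHIP-/-, both below 8 in log2 brightness.

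**Figure D4:**
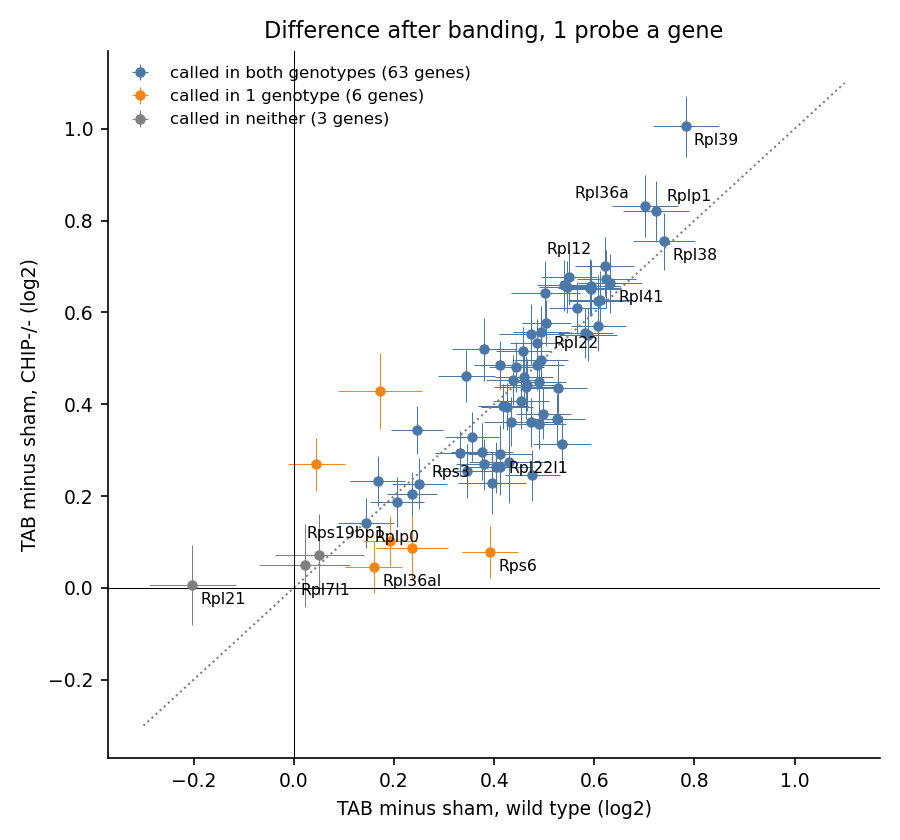
TAB minus sham difference (log2, after loess) in wild type against CHIP-/- for the brightest tested probe of each of the 72 member genes, with standard errors as bars and the line of equality dotted. Rpl39 lies highest at 0.78 and 1.01, Rps6 lies below the line at 0.39 and 0.08, and Rpl21, Rpl7l1 and Rps19bp1 were called in neither genotype.

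Probes of 1 gene did not always agree. Of 29 genes with more than 1 tested probe, all probes rose for 20 in wild type and 18 in CHIP-/-, some but not all for 6 and 8, and no gene had probes called in opposite directions. The spread between probes of a gene had a median of 0.15 in wild type and 0.14 in CHIP-/-. It was largest for Rpl22, whose brighter probe rose by 0.49 and 0.56 while the other gave -0.15 and -0.16, neither called. The latter read -0.71, -0.85, -0.94 and -0.66 in WT sham and -0.92, -1.01, -0.82 and -0.99 in WT TAB, with overlap. Rps24 had a probe at 0.61 and 0.63 and another, near background, at -0.01 and 0.10. Rps3, a small subunit protein with a role in DNA repair, rose by 0.38 and 0.30 on its brighter probe, from -0.91, -0.93, -0.85 and -0.91 to -0.52, -0.57, -0.57 and -0.44 in wild type, and gave 0.08 and -0.03, not called, on the other.

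**Figure D5:**
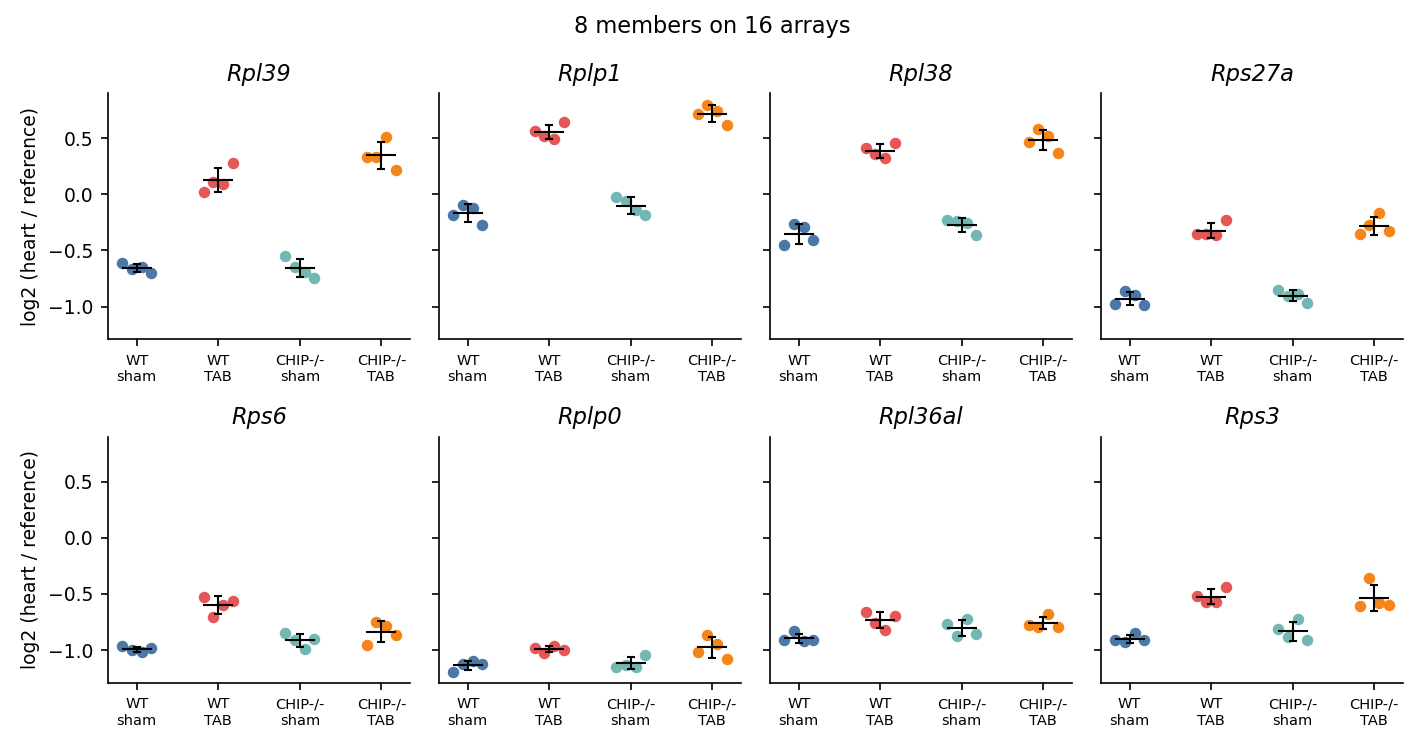
Log2 ratio of heart over reference after loess on each of the 16 arrays for 8 members, with the mean and SD of each group of 4. Rpl39, Rplp1, Rpl38 and Rps27a are higher on all TAB arrays, Rplp0 and Rpl36al differ by 0.14 and 0.16 in wild type, Rps3 lies higher after TAB in both genotypes, and Rps6 is higher after TAB in wild type while its CHIP-/- groups overlap.

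The 9 members with marked spots were fitted once the marked spots were kept, an alternative added after the data were seen. In that fit 103 of 118 members rose in wild type and 98 in CHIP-/-, against 2459 and 3188 of all 14919 probes. Rps12 rose by 0.83 and 1.02, Rps20 by 0.75 and 0.88, Rpl37a by 0.68 and 0.60, Rps27 by 0.67 and 0.51, Rps23 by 0.66 and 0.53, Rps4x, the X-linked copy, by 0.51 and 0.49, the stalk protein Rplp2 by 0.50 and 0.55, and Rps14 by 0.40 and 0.58. The dimmer Rps19 probe gave 0.17 and 0.16 and was not called. After banding Rps12 was higher in CHIP-/- than in wild type by 0.26 ± 0.07 (SE, limma adjusted p = 0.013). In that comparison 4 members were called higher with marked spots kept, and 664 of all 14919 probes. None of the other members set aside was called between the genotypes. The marks fell mostly on the CHIP-/- sham arrays, which had 55 to 459 such spots against 3 to 22 on the others.

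Few ribosomal protein probes differed between the genotypes. After sham no member was called by limma (1 passed at an unadjusted p below 0.05), the median difference of CHIP-/- minus wild type was 0.03, and 5 of all tested probes (0.0340%) were called, 0.0136% higher and 0.0204% lower. The 4 arrays of each genotype did not overlap for 6 members, against 5.09% of all probes. After banding 3 member probes were higher in CHIP-/- (4.42% of all probes were) and 1 was lower (5.45%), with a median difference of 0.02; 9.87% of all probes were called in either direction. The arrays did not overlap for 15 members, against 11.9% of all probes. The higher ones were Rpl39 at 0.22 ± 0.07, 1 of the 3 Rpl36a probes at 0.20 ± 0.06 and Rpl4 at 0.19 ± 0.06 (SE, limma adjusted p = 0.032, 0.030 and 0.041), and the lower one was Rps6. All 3 higher calls were lost when either WT TAB array 1 or 3 or CHIP-/- TAB array 3 was left out, with only the compared groups fitted, without the intensity trend and without the filter on dim probes.

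The response to banding differed between the genotypes for 1 member, Rps6. It stood at -0.97, -1.00, -1.02 and -0.98 in WT sham and at -0.53, -0.71, -0.60 and -0.56 in WT TAB. In CHIP-/- it stood at -0.85, -0.91, -0.99 and -0.90 after sham and at -0.95, -0.75, -0.78 and -0.86 after banding. Thus the wild-type groups lay apart, and those of CHIP-/- overlapped. The rise was 0.39 ± 0.06 in wild type (SE, limma adjusted p = 1.1e-05) and 0.08 ± 0.06 in CHIP-/- (adjusted p = 0.28), and the responses differed by -0.31 ± 0.08 (limma interaction, adjusted p = 0.025; of all tested probes 2.03% were called lower in it, 2.29% higher and 4.33% in either direction). After banding Rps6 was lower in CHIP-/- than in wild type by 0.24 ± 0.06 (adjusted p = 0.0082), with no overlap of the 4 arrays of each.

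The Rps6 call was near the threshold. Its interaction kept its sign in all settings, from -0.41 to -0.12, but the adjusted p was 0.083 with Feature Extraction's ratios, 0.079 with the deposited series table, 0.11 in the heart channel alone, 0.062 without the filter on dim probes, 0.072 without the intensity trend, 0.071 with the median of tested probes, 0.49 with the median of all probes, 0.55 with the spike-ins, and 0.12 and 0.17 without the 3 arrays high in Myl7 or the 3 with Y-linked transcripts. It was also above 0.05 when WT sham array 3, CHIP-/- sham array 1 or 2, WT TAB array 1 or CHIP-/- TAB array 1 was left out (0.051 to 0.063). A second Rps6 probe was above background on no array, so the result rests on 1 probe.

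Other messages of the translation machinery were counted from lists, some of which share genes; those named from them were chosen after their values were seen unless the fixed list holds them. Of the 3 ribosomal proteins measured outside the name rule, 2 rose in each genotype. Rpl3, 1 of these, rose by 0.49 in wild type and 0.82 in CHIP-/-, while Rack1, a scaffold on the small subunit, gave 0.03 and -0.03. In the difference in response 1 of the 3 was called higher, at 0.33, and 1 was higher in CHIP-/- than in wild type after banding, at 0.27. Of 17 other messages listed as TOP messages, 12 rose in each genotype and none fell, with medians of 0.27 and 0.31. Of all tested probes 16.3% rose in wild type and 21.3% in CHIP-/-. Among them Pabpc1, the poly(A)-binding protein, rose by 0.61 and 0.81, Gas5, a host of small nucleolar RNAs, by 0.49 and 0.80, Npm1, a nucleolar chaperone, by 0.36 and 0.42, and Tpt1 by 0.34 and 0.34. Eef1a1, the elongation factor that brings aminoacyl-tRNA, rose by 0.93 and 1.45, and its muscle isoform Eef1a2 fell by 0.62 and 0.53.

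Other translation lists were mixed. Over all tested probes 16.3% rose and 17.1% fell in wild type, and 21.3% rose and 22.7% fell in CHIP-/-. In either direction 33.4% and 44.0% were called. The share of initiation factor genes called in wild type was near that. The shares of the ribosome biogenesis list and of the S6 kinase and mTOR list were below it in both genotypes. Of 42 initiation factor genes 10 rose and 4 fell in wild type, and 11 rose and 11 fell in CHIP-/-, with medians of 0.02 and -0.0084. Eif4e, the cap-binding protein, fell by 0.37 and 0.60, and Eif3h rose by 0.45 and 0.65. Of 81 ribosome biogenesis genes 6 rose and 4 fell in wild type and 7 rose and 11 fell in CHIP-/-, with Nop58 at 0.36 and 0.40 among the risers and Emg1 at -0.21 and -0.28 among those that fell. Of 15 genes of RNA polymerase I and its factors 2 rose and 4 fell in wild type, and 2 rose and 5 fell in CHIP-/-. Of 22 genes of the S6 kinase and mTOR axis 1 rose and 4 fell in wild type and 3 rose and 5 fell in CHIP-/-. Their differences ran from -0.51 to 0.33 in wild type and from -0.79 to 0.35 in CHIP-/-. In the difference in response 1 of them was called lower. Rps6kb1, the S6 kinase itself, was not called (-0.03 and 0.07). Of the 11 elongation factor genes 3 rose and 2 fell in wild type and 5 rose and 1 fell in CHIP-/-.

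Markers of several cell types moved with banding in the same hearts, and in whole tissue a change in the number of cells of a type and a change in RNA per cell cannot be told apart. Beside the counts below, 16.3% of all tested probes rose and 17.1% fell in wild type, and 21.3% and 22.7% in CHIP-/-. Of 15 fibroblast markers 12 rose in wild type and 13 in CHIP-/-, and their mean level went from -1.52 to -1.13 over the WT sham arrays to -0.97 to -0.43 over WT TAB, and from -1.79 to -1.45 to -0.24 to 0.02 in CHIP-/-. Of 17 macrophage markers 13 and 16 rose, with mean levels of -0.19 to -0.0096 and 0.25 to 0.36 in wild type and -0.27 to -0.15 and 0.58 to 0.84 in CHIP-/-. Of 18 proliferation markers 15 and 16 rose, with mean levels of -1.65 to -1.32 and -0.97 to -0.64 in wild type and -1.57 to -1.47 and -0.99 to -0.68 in CHIP-/-. Of 11 ventricular myocyte markers 0 rose and 7 fell in wild type and 1 rose and 9 fell in CHIP-/-, with mean levels of 3.71 to 3.85 and 3.39 to 3.65, and of 3.20 to 3.75 and 3.15 to 3.32. Of 16 endothelial markers 12 rose and 1 fell in wild type and 6 rose and 2 fell in CHIP-/-, and of 13 smooth muscle and pericyte markers 10 rose and 1 fell and 9 rose and 2 fell. Of 4 neutrophil markers 1 and 2, of 2 lymphocyte markers 0 and 2, of 4 red cell markers 0 and 1, and of 7 atrial markers 2 and 3 rose, and none of these fell. The part of these cells in the ribosomal protein difference was not tested.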

How the data were processed

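Heart RNA was hybridised against a common reference on 16 Agilent 2-colour arrays, all with the same dye orientation. Spot intensity and log10 processed ratios are as deposited, read with Feature Extraction 9.1.3.1 from GenePix 4000B scans, per the file headers; the deposited series table holds the authors' log2 ratios, centred by gene, which followed the scanner files' ratios (r at least 0.998 on each array, column medians -0.03 to 0.03; the centring method is not stated). Mean signals were corrected with limma 3.58.1 (R 4.3.3; normexp, offset 50), normalized by loess with control spots at weight 0, and spots of a probe averaged after outlier-marked ones were dropped. Probes above background on at least 4 arrays with values on 15 were fitted (limma group means, intensity trend, residual df 12). The Benjamini-Hochberg threshold was 0.05. Per comparison the named genes were the 10 largest called changes in each direction, members with opposed probe calls, and a fixed list. Probe accessions were matched to RefSeq symbols. Members, lists and tests were chosen with earlier results of these data known. The fit was tested on simulated data. Some genes are not reported here.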

Additional observations from a re-analysis of the deposited data

Results flagged for a closer look

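Within groups of 4 arrays, 8 values among 120 groups screened (29 genes and the member median, 4 groups each) stood apart from the other 3 by Dixon's criterion, which chance alone does in about 1 in 20 groups. In WT sham, Rpl22 on array 2 was at -1.03 (others -1.10 to -1.09), Rpl36a on array 1 at -1.46 (others -1.22 to -1.21) and Rpl36al on array 2 at -0.83 (others -0.92 to -0.91). In WT TAB, Rps27a on array 4 was at -0.23 (others -0.36 to -0.35). In CHIP-/- sham, Rpl41 on array 4 was at -0.91 (others -0.74 to -0.72). In CHIP-/- TAB, Rps28 on array 4 was at -0.23 (others -0.10 to -0.07), Rps3 on array 2 at -0.36 (others -0.61 to -0.59) and the median over the member probes on array 2 at -0.40 (others -0.49 to -0.48). The response of Rps6 to banding differed between the genotypes, at -0.31 by the limma interaction (adjusted p = 0.025), as described above.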

How the results depend on the processing

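Of the settings tried, background correction, probe filters, saturated or outlier-marked spots, the intensity trend, the replicate block, left-out arrays, Feature Extraction's ratios, the deposited table and the heart channel kept the members' median above 0 after banding in both genotypes, and centring on the median of all probes did not; the cause was not tested. In wild type the counts of members higher and lower and the median were 0, 2 and -0.0089 with the median of all probes, 42, 1 and 0.18 with the median of tested probes and 1, 2 and 0.0059 with the spike-ins, and the heart channel gave 1 lower and a median of 0.27. In CHIP-/- they were 3, 14 and -0.13 with the median of all probes and 26, 3 and 0.096 with that of tested probes; the spike-ins gave 28 higher and a median of 0.18, the heart channel a median of 0.19, no filter on dim probes 0.32 and the brightest probe of a gene 0.44. The 26 and 28 members higher there were near the share over all tested probes, as given above. In CHIP-/- 1 member was lower with Feature Extraction's ratios, with the series table and without the 3 arrays with Y-linked transcripts. The genotype median after sham was 0.094 with the median of all probes and -0.040 with the spike-ins. After banding 0 members were higher in CHIP-/- with the median of all or of tested probes, no filter, only the compared groups or no trend, and 0 were lower with the median of all probes, Feature Extraction's ratios, the heart channel, the series table or the spike-ins; the median was -0.018 with the median of tested probes and 0.15 with the spike-ins. For the difference in response, 0 members were lower with the median of all or tested probes, the heart channel, no filter, no trend, the spike-ins (3 higher) and without the 3 arrays high in Myl7 or the 3 with Y-linked transcripts, and the median was -0.11, -0.079, -0.046 and 0.18 with the median of all probes, that of tested probes, the heart channel and the spike-ins. A fit of only the compared groups gives no difference in response.

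With the median of all probes the members' median itself was below 0 in both genotypes, and many members not listed here were below 0 too; of the named genes, those called higher under loess with a value below 0 under a scaling were as follows. In wild type, with the median of all probes and then with the spike-ins, Rpl11 was at -0.17 and -0.16, Rpl13a at -0.095 and -0.080, Rpl36al at -0.17 and -0.15, Rpl5 at -0.074 and -0.059, Rplp0 at -0.19 and -0.17, Rps3 at -0.13 and -0.11 and Rpsa at -0.084 and -0.069. In CHIP-/- with the median of all probes, Rpl10a was at -0.15, Rpl11 at -0.22, Rpl13a at -0.23, Rpl22l1 at -0.18 and Rpl4 at -0.10. Rpl41 was at -0.030 there, Rpl5 at -0.16, Rplp0 at -0.27, Rps24 at -0.0039 and Rps27a at -0.0013. Rps3, called higher under loess, was called lower there at -0.33 (limma adjusted p = 0.036). Rpl36al and Rps6, not called under loess, were also called lower, at -0.35 and -0.40. Rpsa, called in neither, was at -0.30. With the median of tested probes Rpl13a was at -0.011, Rplp0 at -0.045 and Rps3 at -0.11, with the spike-ins Rps3 at -0.030 and in the heart channel Rplp1 at -0.25.

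Leaving out each array in turn gave 89 to 95 members higher and 0 to 1 lower in wild type (median 0.41 to 0.44) and 88 to 91 higher and 0 to 1 lower in CHIP-/- (median 0.35 to 0.38). Between genotypes 0 members were called after sham (median 0.021 to 0.046), and after banding 0 to 5 were higher and 1 lower (median 0.013 to 0.046); the difference in response had 0 higher and 0 to 1 lower (median -0.020 to 0.015). Same-numbered arrays of different groups did not deviate together (r -0.18 to 0.15 over 24 pairs, 4 above 0.1), so the numbers were not taken as pairs; with the replicate number as a block 92 members rose in wild type and 89 in CHIP-/-, 1 was higher and 1 lower in CHIP-/- after banding, and Rps6 was the member called in the interaction (limma adjusted p = 0.048). Net signals, outlier-marked spots kept, and centring on tested probes or spike-ins were chosen after seeing the data. Members not well above background are limited by signal, as in the band below 8.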
